A study of Mus musculus with 22 samples.

Results

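Whole flaxseed and its purified lignan were compared in the mouse mammary gland by direct counting of miRNAs. The comparison holds 6 lanes of mice fed a diet with 10% flaxseed and 6 lanes of mice fed a diet with 0.15% secoisolariciresinol diglucoside (SDG), which makes 12 of the 22 lanes of the series. The lanes were chosen by their titles alone, without any measured value. All mice were female C57BL/6 mice aged 4 to 5 weeks at the start, stayed on their diet for 3 weeks, and carried no transgene or deletion named in the labels. The labels state that 6 mice were randomized to each diet, and each lane held RNA of the fourth left gland of 1 mouse. The remaining 10 lanes were 5 of the basal AIN-93G diet and 5 of a 3.67% flaxseed oil diet; they entered the fit for its estimate of spread. The basal lanes are also given beside some results. Both diets compared supply lignan, and the seed adds oil, fibre and protein, so the comparison addresses what the whole seed does beyond its lignan.

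SDG is the main lignan of flaxseed. Gut bacteria turn it into enterodiol and enterolactone, which bind estrogen receptors weakly, while the oil of the seed is rich in alpha-linolenic acid. A miRNA is a short RNA that guides Argonaute proteins to messenger RNAs, mainly by pairing of its seed, bases 2 to 8 counted from the 5′ end. miRNAs with the same seed can share targets. The mammary fat pad holds epithelial ducts within adipose tissue, with stroma, vessels and immune cells; in the mouse the fourth gland also surrounds the inguinal lymph node and lies on the body wall muscle. Whether the node or muscle was trimmed is not given in the sources used here.

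The mature sequences below are those on which the results turn. They are credited to RefSeq on GRCm38.p6, which held 38 of the 49 miRNAs named by rule, and the capitals mark the seed. The first group holds miR-27b, the miRNA of smallest p, with miR-27a of the same seed and miR-24, which is transcribed from both of their clusters.
miR-27b-3p: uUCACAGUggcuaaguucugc
miR-27a-3p: uUCACAGUggcuaaguuccgc
miR-24-3p: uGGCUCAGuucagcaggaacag
The second group holds let-7 members that share the seed GAGGUAG. Of these, let-7b and let-7f stood on opposite sides in 1 flaxseed lane, and let-7d stood at neither end there.
let-7b-5p: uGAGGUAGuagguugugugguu
let-7d-5p: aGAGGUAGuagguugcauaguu
let-7f-5p: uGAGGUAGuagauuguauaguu
The third group holds a hypoxia-induced miRNA and 1 that was low in several SDG lanes.
miR-210-3p: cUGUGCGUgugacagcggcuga
miR-1931: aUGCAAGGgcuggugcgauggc
The fourth group holds miRNAs that were high in the SDG 1 and SDG 2 lanes.
miR-342-3p: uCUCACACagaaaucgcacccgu
miR-92a-3p: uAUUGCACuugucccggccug
miR-15b-5p: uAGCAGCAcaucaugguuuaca
The last group holds 2 neighbouring muscle miRNAs.
miR-206-3p: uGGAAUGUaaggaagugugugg
miR-133b-3p: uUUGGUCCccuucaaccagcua

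The mature miR-27b lies at chr13:63300760-63300780 on the plus strand, inside the protein-coding gene Aopep, and 1 of the 2 copies of miR-24 lies downstream in the same gene at chr13:63301251-63301272. The mature miR-27a lies at chr8:84208727-84208747 with the other copy of miR-24 at chr8:84208875-84208896, both on the plus strand and outside protein-coding genes. miR-206 at chr1:20679055-20679076 and miR-133b at chr1:20682834-20682855 stand next to each other on the plus strand. miR-342-3p lies inside Evl at chr12:108658680-108658702 and miR-15b inside Smc4 at chr3:69009775-69009796, both on the plus strand.

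The panel carried 566 mouse probes (class Endogenous1), of which 253 exceeded the mean plus 2 SD of the lane's 8 negative controls in at least 5 of the 22 lanes and were tested. Of the 313 others, 69 exceeded that threshold in at least 1 of the 12 lanes and none in more than 3. Total mouse miRNA counts ranged from 343479 to 702151 in flaxseed lanes and from 260062 to 685937 in SDG lanes. The geometric mean of the positive controls was 1177 ± 129 counts in flaxseed and 1356 ± 92.4 counts in SDG (SD, n = 6 each; two-sided exact permutation test, p = 0.0195, 0.156 after Benjamini-Hochberg adjustment over 8 lane measures). The other 7 measures had p of 0.177 or more in the same exact permutation test, before adjustment. Markers of the gland were above background in all 12 lanes: median levels were 9.72 log2 CPM in flaxseed and 10.12 in SDG for luminal miR-200c, 11.30 and 11.97 for basal miR-205, and 15.59 and 15.53 for endothelial miR-126-3p. In whole glands, fewer cells of a type and less RNA per cell cannot be told apart. Levels are log2 CPM, the log2 of counts scaled by TMM to a common library total with 1 added, and they are compared between lanes, not between miRNAs, since probes differ in efficiency.

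The flaxseed 3 lane stood apart before any comparison. miR-720, a sequence since described as a tRNA fragment, took 53.7% of its count (95% exact binomial interval 53.6 to 53.9, counting error only), against 2.38 to 4.42% in the other flaxseed lanes. Its housekeeping mRNAs had a geometric mean of 135 counts, against 1493 to 4407 in the other flaxseed lanes and 1070 to 3542 in SDG lanes, and B2m, which encodes the light chain of class I MHC, had 9 counts. This lane was the highest of the 12 for 80 of the 253 miRNAs and the lowest for 82, together 64.0%. The SDG 5 lane also had a high miR-720 share, 47.4%, but was the highest or lowest lane for only 12.6% of the miRNAs. The median SD over miRNAs was 0.59 log2 in flaxseed and 0.38 in SDG, and 0.28 in flaxseed without flaxseed 3. Results are therefore given with and without flaxseed 3, and what made it differ was not tested. Scaling by housekeeping mRNAs raised this lane most, since its count of them was the lowest.

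No miRNA separated whole flaxseed from SDG. Of the 253 tested, 0 passed an adjusted p of 0.05 in edgeR's quasi-likelihood test with Benjamini-Hochberg adjustment (0%), and the smallest adjusted p was 0.804. At an unadjusted p under 0.05 there were 13 (5.14%), 10 of them higher in flaxseed (3.95%) and 3 lower (1.19%). DESeq2 also called 0, with 10 at an unadjusted p under 0.05, and limma-voom called 0, with 5. For no miRNA did the 6 flaxseed and 6 SDG lanes fall apart without overlap (0%).

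The differences were centred near 0. The log2 fold change of flaxseed over SDG was above 0 for 138 miRNAs (54.5%) and below 0 for 115 (45.5%), with a median of 0.03. It exceeded 1 in size for 15, of which 10 were higher and 5 lower in flaxseed. The median standard error (SE) was 0.29, and the 95% interval of a miRNA, before adjustment, reached a median of 0.61 to each side. Differences well below that size were not detectable with 6 lanes a diet. Larger ones could also fail the adjusted threshold: miR-2141, at 1.99, had an adjusted p of 0.804 in edgeR. Precision differed little with abundance: the median SE was 0.33 for the 85 least abundant miRNAs and 0.30 for the 84 most abundant.

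**Figure D1:**
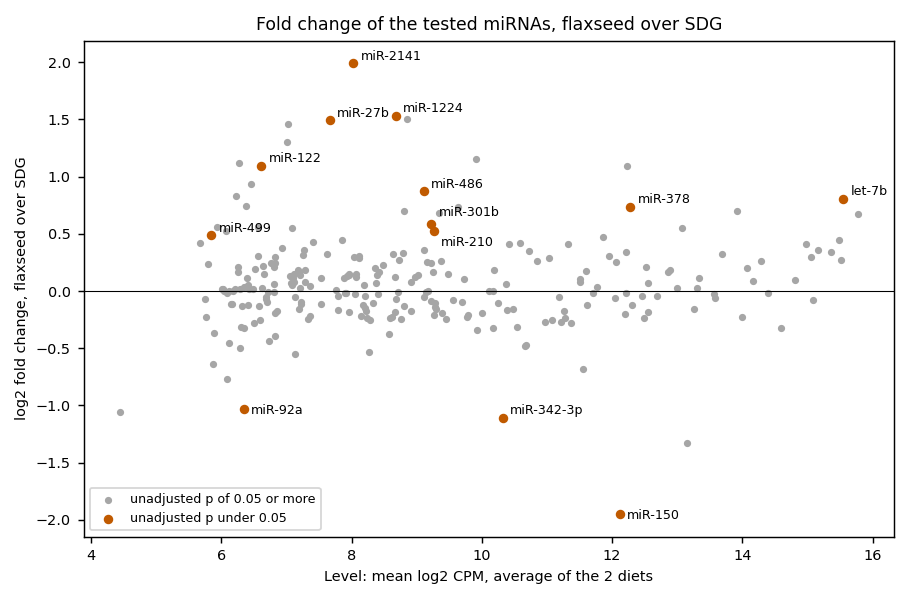
Log2 fold change of flaxseed over SDG (vertical) against the level in log2 CPM averaged over both diets (horizontal) for the 253 tested miRNAs. Most points lie near 0, and the 13 named miRNAs with an unadjusted p under 0.05 (orange) hold 10 above 0 and 3 below.

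miR-27b, which represses the adipocyte regulator Pparg, had the smallest p. In flaxseed its lanes ranged from 7.26 to 10.68 log2 CPM with a median of 7.71, and in SDG from 7.04 to 7.34 with a median of 7.30. Its counts were low, with a median of 98 in flaxseed and 61.5 in SDG. It was above background in 5 flaxseed and 6 SDG lanes. The flaxseed 3 lane alone stood at 10.68 while the other flaxseed lanes reached at most 7.75, and 5 of the 6 flaxseed lanes lay above all SDG lanes. Its log2 fold change was 1.49 ± 0.46 (SE; edgeR adjusted p = 0.804), and 0.32 without flaxseed 3 (unadjusted p = 0.0539). Flaxseed was higher in 32 of the 36 pairs of 1 flaxseed and 1 SDG lane. Against the basal lanes, which both diets share as their comparison, miR-27b differed by 1.34 ± 0.49 in flaxseed and by -0.15 ± 0.48 in SDG.

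The relatives of miR-27b did not all follow it in the flaxseed 3 lane. miR-24, made from the same cluster, was low there, with 8.10 log2 CPM, and lay between 10.67 and 10.85 in the 5 remaining flaxseed lanes and 10.12 to 11.09 in SDG. miR-23b, the third miRNA of the cluster, stood at 10.46, against 11.40 to 12.06 in the other flaxseed lanes and 11.15 to 11.70 in SDG. miR-27a, of the same seed, did follow it: flaxseed 3 was its highest lane at 13.57, against 12.71 to 12.92 and 12.51 to 13.10. Across all lanes the log2 fold change was -0.16 ± 0.30 for miR-24, 0.10 ± 0.21 for miR-23b, 0.18 ± 0.24 for miR-27a and 0.26 ± 0.18 for miR-23a (adjusted p of 0.951 or more in edgeR).

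The let-7 family, which restrains growth and maintains differentiation, leaned towards flaxseed without passing the test. Of its 9 tested members, 7 had a log2 fold change above 0 and the median was 0.32, against 54.5% above 0 and a median of 0.03 over all tested miRNAs. Without flaxseed 3, 7 of 9 were again above 0, with a median of 0.20. Over all tested miRNAs, 120 of 253 were above 0 in that fit, with a median of -0.017. The let-7 median stayed above 0 under every scaling tried, at 0.099 or more. let-7b ranged from 15.30 to 17.46 log2 CPM in flaxseed with a median of 15.53, and from 15.07 to 15.47 in SDG with a median of 15.32. Its highest lane was flaxseed 3, and its log2 fold change of 0.80 ± 0.31 (edgeR adjusted p = 0.804) was 0.23 without that lane.

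let-7f showed the reverse in the same lane although it has the same seed. Its level in flaxseed 3 was 9.36 log2 CPM, and 11.88 to 13.36 in the 5 remaining flaxseed lanes and 12.16 to 13.24 in SDG. Its log2 fold change was -0.18 ± 0.40, and 0.046 without flaxseed 3. let-7i was high in that lane, at 15.09 against 13.34 to 13.86 in the other flaxseed lanes, and its log2 fold change of 0.32 ± 0.26 was -0.10 without it.

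let-7d was the family member least dependent on 1 lane. It ranged from 15.32 to 15.79 log2 CPM in flaxseed with a median of 15.47, and from 14.94 to 15.35 in SDG with a median of 15.22. The diets overlapped only where flaxseed 4, the lowest flaxseed lane, fell below SDG 2, so flaxseed was higher in 35 of 36 pairs, the most of any tested miRNA. Its log2 fold change came to 0.34 ± 0.19 (95% interval -0.05 to 0.74; edgeR adjusted p = 0.814), and 0.33 without flaxseed 3. miR-199a-3p, a miRNA of fibroblasts and other mesenchymal cells, had a similarly small shift: it ranged from 15.02 to 15.38 in flaxseed and from 14.59 to 15.11 in SDG, with flaxseed higher in 34 of 36 pairs and a log2 fold change of 0.30 ± 0.29 (edgeR adjusted p = 0.966).

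miR-210, the classic miRNA of the hypoxia response, had tightly grouped lanes apart from 1 in each diet. It ranged from 9.30 to 10.35 log2 CPM in flaxseed with a median of 9.31, and from 8.89 to 9.37 in SDG with a median of 8.95. The flaxseed 3 and SDG 1 lanes were the high ones of their diets, and SDG 1 was the only SDG lane to overlap the flaxseed lanes. Its fitted log2 fold change was 0.52 ± 0.21 (edgeR adjusted p = 0.804), and 0.28 without flaxseed 3 (unadjusted p = 0.132).

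miR-122, the main miRNA of hepatocytes, and miR-378, encoded inside the metabolic coactivator gene Ppargc1b, are both tied to lipid metabolism. miR-122 ranged from 4.76 to 7.84 log2 CPM in flaxseed with a median of 7.61, and from 5.18 to 6.95 in SDG with a median of 6.28. Here the flaxseed 1 lane was the low one, at 11 counts, while 4 flaxseed lanes lay above all SDG lanes. Its counts were small: the median was 85.5 in flaxseed and 32.5 in SDG, and it was above background in 5 flaxseed and 2 SDG lanes. The log2 fold change was 1.09 ± 0.47 (edgeR adjusted p = 0.804), and 0.97 without flaxseed 3. miR-378 ranged from 12.06 to 14.17 in flaxseed and from 11.61 to 12.45 in SDG, with flaxseed 3 the high lane, and its log2 fold change of 0.74 ± 0.32 was 0.16 without it.

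**Figure D2:**
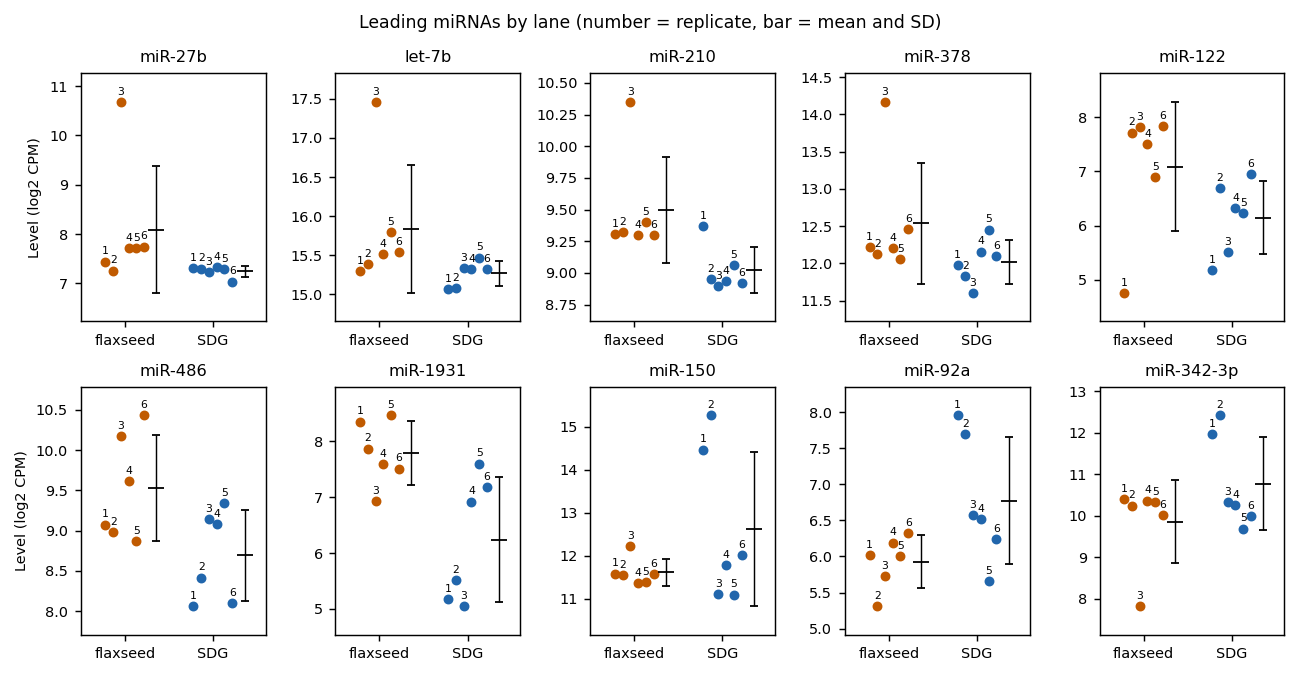
Level in log2 CPM (vertical) of 10 miRNAs in the 6 flaxseed lanes (left, orange) and the 6 SDG lanes (right, blue), each point numbered by replicate, with the mean and SD as a bar. Flaxseed 3 stands alone at the top for miR-27b, let-7b, miR-210 and miR-378, and SDG 1 and SDG 2 stand at the top for miR-150, miR-92a and miR-342-3p.

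Several other named miRNAs depended on the same lane. miR-1224 had a log2 fold change of 1.53 ± 0.62, and -0.30 without flaxseed 3. Its level was 12.26 log2 CPM in flaxseed 3, but only 7.70 to 8.83 in its 5 companion lanes and 8.01 to 8.92 in SDG. miR-2141 differed by 1.99 ± 0.88, and by -0.39 without that lane. miR-301b differed by 0.59 ± 0.26, and by 0.15 without it. miR-30e, one of the abundant miR-30 family of epithelium, stood at 12.05 in flaxseed 3 against 9.11 to 9.49 in the other flaxseed lanes and 9.25 to 9.85 in SDG, and its log2 fold change of 0.74 ± 0.42 was -0.24 without that lane.

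The 13 miRNAs at an unadjusted p under 0.05 therefore differed in how they stood without flaxseed 3. Only miR-150 and miR-92a kept an unadjusted p under 0.05 in the edgeR fit without it, which again called 0 miRNAs. That fit had 7 of 253 at that level, 1 higher and 6 lower in flaxseed, against 10 higher and 3 lower with all lanes. The sign of the log2 fold change turned for 76 of the 253 miRNAs. The values of SDG 5 and of the basal lane with a high miR-720 share, basal 1, did not show the same pattern for miR-27b: they were 7.29 and 7.31 log2 CPM, within the range of the remaining lanes. Other miRNAs, picked out after their values were seen, were mixed. Basal 1 was the lowest basal lane for miR-16 and miR-143, at 13.28 and 13.47, and flaxseed 3 was low too, at 10.64 and 11.47. For miR-145 basal 1 was the highest basal lane, at 15.29, whereas flaxseed 3 was low, at 11.79. For miR-142-3p basal 1 was the lowest, at 10.47, whereas flaxseed 3 was high, at 14.73.

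**Figure D3:**
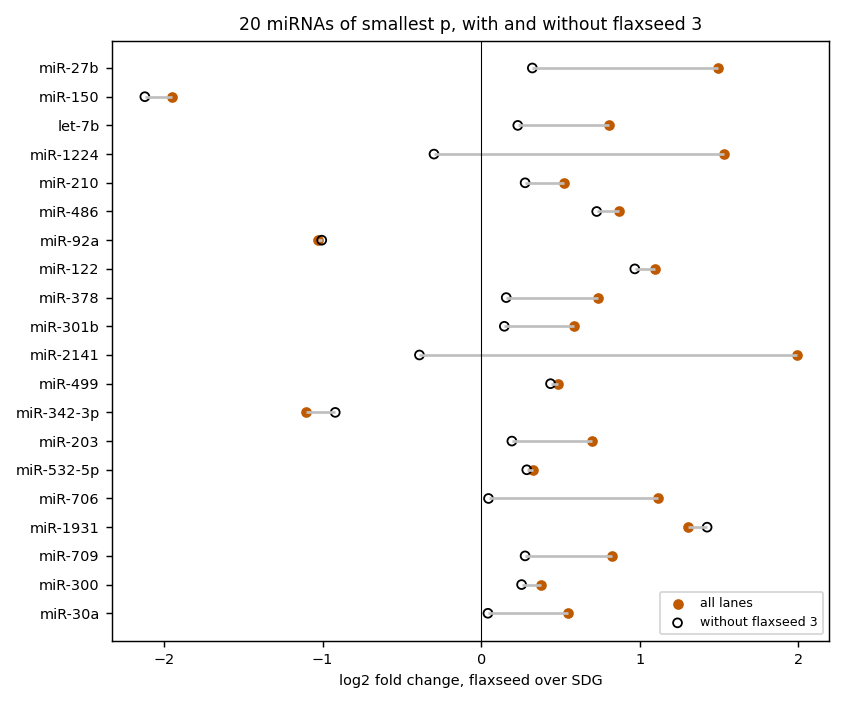
Log2 fold change of flaxseed over SDG (horizontal) for the 20 miRNAs of smallest p, ordered by p from the top, with all lanes (filled) and without the flaxseed 3 lane (open). The values of miR-1224 and miR-2141 crossed 0, that of miR-27b moved to 0.32, and those of miR-92a and miR-122 moved little.

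miR-1931, encoded inside Cdk17, kept its difference without flaxseed 3, which was its lowest flaxseed lane. It ranged from 6.94 to 8.46 log2 CPM in flaxseed with a median of 7.73, and from 5.05 to 7.60 in SDG with a median of 6.22. SDG 1, SDG 2 and SDG 3 were the low lanes, at 5.05 to 5.52, SDG 4 lay just below the lowest flaxseed lane at 6.92, and SDG 5 and SDG 6 overlapped the flaxseed lanes. It was above background in 6 flaxseed and 3 SDG lanes. The log2 fold change was 1.31 ± 0.66 (edgeR adjusted p = 0.814), and 1.42 without flaxseed 3. Against the shared basal lanes it differed by -0.77 ± 0.67 in flaxseed and by -2.07 ± 0.69 in SDG, and the basal lanes themselves ranged from 6.08 to 10.02.

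The 3 miRNAs lower in flaxseed at an unadjusted p under 0.05 were miR-150, miR-92a and miR-342-3p, and for each the SDG 1 and SDG 2 lanes were the highest of all. miR-150, which is abundant in mature lymphocytes and represses Myb, ranged from 11.36 to 12.22 log2 CPM in flaxseed with a median of 11.55, and from 11.09 to 15.27 in SDG with a median of 11.89. SDG 1 and SDG 2 stood at 14.46 and 15.27, while the other SDG lanes reached at most 12.01 and overlapped the flaxseed lanes. The log2 fold change was -1.95 ± 0.70 (edgeR adjusted p = 0.804). It was -1.11 without SDG 2 (unadjusted p = 0.0914) and -2.12 without flaxseed 3. Against the shared basal lanes it differed by 0.14 ± 0.71 in flaxseed and by 2.09 ± 0.75 in SDG.

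The same 2 SDG lanes were high for miR-342-3p, miR-15b, miR-142-3p and miR-92a. miR-342-3p, a lymphocyte miRNA, stood at 11.97 and 12.42 log2 CPM in SDG 1 and SDG 2, against 7.82 to 10.40 in flaxseed and 9.69 to 10.33 in the other SDG lanes. miR-15b, which represses Bcl2, stood at 12.53 and 13.26, against 11.21 to 11.74 in flaxseed and 10.68 to 11.50 in the other SDG lanes. miR-142-3p, a miRNA of all blood cell lineages that was picked out here after its values were seen, stood at 15.54 and 15.98, against 12.14 to 14.73 in flaxseed and 12.24 to 12.68 in the other SDG lanes.

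miR-92a, of the proliferation-linked miR-17/92 cluster, was low in counts. It had at most 50 counts in flaxseed, with 1 lane above background, and at most 83 in SDG, with 4 lanes above background. SDG 1 and SDG 2 stood at 7.96 and 7.70 log2 CPM, against 5.31 to 6.32 in flaxseed and 5.66 to 6.57 in the other SDG lanes. Its log2 fold change was -1.03 ± 0.44, against -1.11 ± 0.52 for miR-342-3p, -1.33 ± 0.78 for miR-142-3p and -0.68 ± 0.39 for miR-15b (edgeR adjusted p from 0.804 to 0.836). Without SDG 2 these values were -0.83 for miR-92a, -0.64 for miR-342-3p, -0.64 for miR-142-3p and -0.24 for miR-15b, and without flaxseed 3 that of miR-142-3p was -2.11. Scaling by housekeeping mRNAs, which raised flaxseed 3 most, turned the sign for miR-142-3p, to 1.26, and for miR-15b, to 0.86. It brought miR-150 to -0.056, miR-92a to -0.15 and miR-342-3p to -0.60. limma-voom gave -1.0031 for miR-150 (unadjusted p = 0.185).

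miR-150, miR-342-3p and miR-142-3p belong to a wider set of lymphocyte and myeloid miRNAs. Of 11 tested miRNAs of that set, 5 were above 0 and 6 below, with a median log2 fold change of -0.0062. Without flaxseed 3, 4 were above 0 and 7 below, with a median of -0.16, against -0.017 for all tested miRNAs in that fit. The tested probe miR-155.022 was not counted, since lists matched exact probe names and its name carries a suffix. It differed by -0.25, and by -0.26 without flaxseed 3. Picked out after their values were seen, the myeloid miR-223 had a log2 fold change of 0.30 ± 0.16, and miR-146a, which dampens inflammatory signalling, one of -0.31 ± 0.42. The list's median deviation per lane from the average lane was -0.32 to 0.40 log2 in flaxseed and -0.08 to 0.26 in SDG. The part of lymph node tissue in these values was not tested.

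Skeletal muscle miRNAs were the list with the largest median. All 6 tested members had a log2 fold change above 0, with a median of 0.98, against 0.03 for all tested miRNAs. All 6 were also above 0 without flaxseed 3, with a median of 0.67, against -0.017 for all tested miRNAs in that fit. With 1 lane left out at a time, the muscle median ran from 0.65 without flaxseed 6 to 1.61 without SDG 5. At an unadjusted p under 0.05 in edgeR stood 2 of the 6, miR-486 and miR-499, against 13 of all 253 tested miRNAs (5.14%). Without flaxseed 3 their unadjusted p was 0.0737 and 0.0784 in the same test. None of the 6 passed the adjusted threshold in edgeR. The seventh probe of the list, miR-208b, was above background in none of the 12 lanes and was not tested.

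miR-1, which promotes muscle differentiation and is transcribed together with miR-133a, had the clearest lane pattern. It ranged from 12.50 to 15.74 log2 CPM in flaxseed with a median of 13.69, and from 8.15 to 15.86 in SDG with a median of 8.98. SDG 5 at 15.86 was higher than every flaxseed lane, whereas the other 5 SDG lanes lay below all flaxseed lanes, SDG 4 narrowly at 12.47 and the remaining 4 at 9.71 or less. The mean was 14.02 ± 1.33 in flaxseed and 10.45 ± 3.13 in SDG (SD, n = 6 each). The fitted log2 fold change was 1.09 ± 1.34 (edgeR adjusted p = 0.966). SDG 5 had 24023 counts of miR-1, against 88 to 2500 in the other SDG lanes, and without it the log2 fold change was 4.01 (unadjusted p = 0.00844). With every lane kept, the value depended on the method: miR-1 differed by 3.61 with limma-voom (unadjusted p = 0.0188) and by 3.85 in limma on the deposited table (unadjusted p = 0.0190), but by 1.07 with DESeq2.

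miR-133a followed miR-1. It ranged from 8.93 to 11.71 log2 CPM in flaxseed with a median of 10.47, and from 5.79 to 11.50 in SDG with a median of 6.24, and was above background in 6 flaxseed and 3 SDG lanes. SDG 5 was again the high SDG lane, and 5 of the 6 SDG lanes lay below all flaxseed lanes. The log2 fold change was 1.50 ± 1.11 (edgeR adjusted p = 0.964), and 3.74 without SDG 5 (unadjusted p = 0.00268). It was 2.98 with limma-voom and 4.10 in the deposited table, against 1.46 with DESeq2.

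The other muscle miRNAs had smaller ranges. miR-206, found almost only in skeletal muscle, ranged from 6.59 to 10.08 log2 CPM in flaxseed with flaxseed 3 the highest, and from 5.18 to 8.52 in SDG with SDG 5 the highest. It was above background in 4 flaxseed lanes and 1 SDG lane, with a median of 90.5 counts in flaxseed and 24 in SDG. Its log2 fold change was 1.46 ± 0.79, and 0.51 without flaxseed 3. miR-133b, its neighbour on the chromosome, had at most 74 counts in flaxseed and 56 in SDG, with a log2 fold change of 0.56 ± 0.67. miR-486, which muscle shares with red cells, ranged from 8.87 to 10.43 in flaxseed and from 8.06 to 9.34 in SDG, with 3 flaxseed lanes above all SDG lanes and a log2 fold change of 0.87 ± 0.37. miR-499, encoded inside the myosin gene Myh7b, differed by 0.49 ± 0.22 but was above background in only 2 flaxseed lanes and 1 SDG lane.

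The basal lanes show how widely muscle miRNAs varied within 1 diet. miR-1 ranged from 8.25 to 17.43 log2 CPM over the 5 basal lanes. Over all 253 miRNAs, 20 (7.91%) differed from basal at an unadjusted p under 0.05 in flaxseed and 13 (5.14%) in SDG. Against these shared lanes, miR-1 differed by -1.16 ± 1.39 in flaxseed and by -2.26 ± 1.43 in SDG, and miR-133a by -1.15 ± 1.14 and -2.65 ± 1.18. The list's median deviation per lane ran from -0.025 to 1.41 log2 in flaxseed and from -1.44 to 1.34 in SDG, so the diets overlapped. The part of adjacent muscle in these values was not tested.

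**Figure D4:**
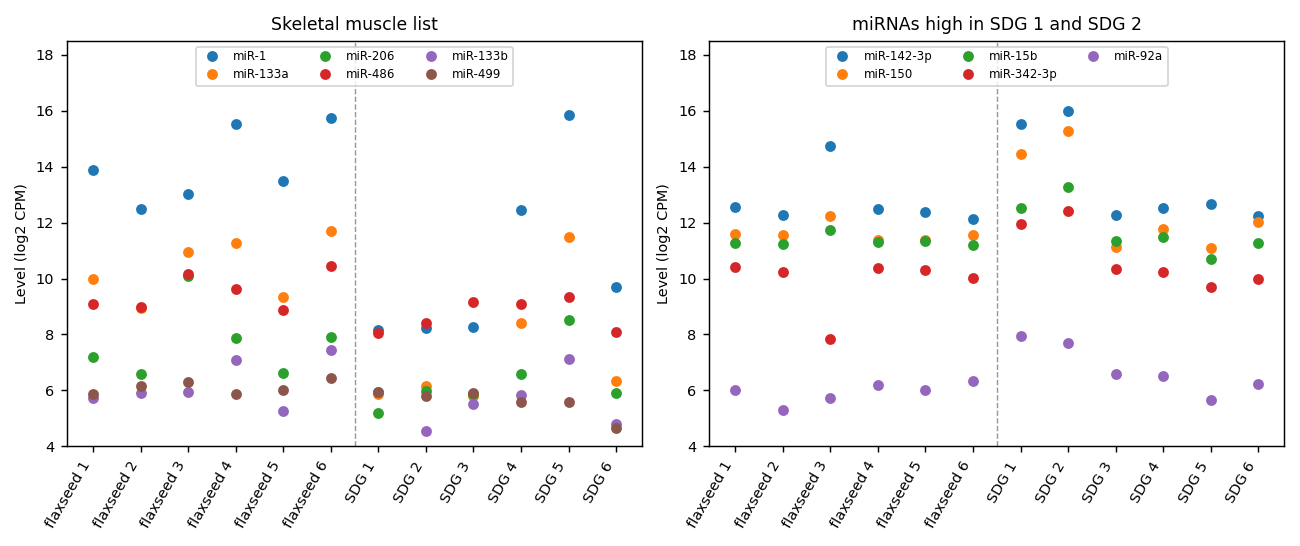
Level in log2 CPM (vertical) in each flaxseed lane (left of the dashed line) and each SDG lane (right) for the 6 tested skeletal muscle miRNAs (left panel) and 5 miRNAs high in SDG 1 and SDG 2 (right panel). miR-1 lies between 12.50 and 15.74 in flaxseed and at 9.71 or less in 4 of the 6 SDG lanes, and miR-150 reaches 14.46 and 15.27 in SDG 1 and SDG 2, against at most 12.22 in the other lanes.

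The remaining lists had medians closer to 0. For the miR-17/92 cluster and its paralogs, 8 of 9 tested members were below 0 with a median of -0.27, and for miR-15/16 all 6 were below 0 with a median of -0.23. Flaxseed 3 was low for miR-15/16, with a median deviation from the average lane of -2.11 log2, against 0.11 to 0.32 in the other flaxseed lanes and -0.053 to 0.38 in SDG. Without it 133 of all 253 tested miRNAs were below 0, with a median of -0.017. Of the 6 miR-15/16 members, 2 were then above 0 and their median was -0.065. All 9 of the miR-17/92 group were below 0, with a median of -0.22. With all lanes, both medians turned positive, to 0.33 and 0.17, when lanes were scaled by housekeeping mRNAs, and to 0.31 and 0.30 when they were scaled by positive controls. Under those scalings the 253 miRNAs themselves had medians of 0.93 and 0.48. Relative to all tested miRNAs both lists therefore stayed below the median under each of the 3 scalings.

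Of the imprinted Dlk1-Dio3 cluster, 21 of 49 probes matched by exact name were tested, and 18 of these were above 0 with a median of 0.15. Without flaxseed 3, 12 of the 21 were above 0 and the median was 0.079, against 120 of 253 and -0.017 for all tested miRNAs. The tested probe miR-543.009, whose name carries a suffix, was not counted. It differed by -0.16, and by -0.23 without flaxseed 3. miR-127, the cluster's most cited member, differed by 0.69 ± 0.36, and by 0.20 without flaxseed 3, where it stood at 11.09 log2 CPM. miR-300 differed by 0.38 ± 0.20, and by 0.25 without that lane. Endothelial miRNAs had 8 of 10 above 0 with a median of 0.21, and the lipid and fatty acid list 9 of 15 with a median of 0.17. Of the list of miRNAs that target estrogen receptor alpha, 6 of 11 were above 0 and the median was 0.044, but without flaxseed 3 it was 4 of 11 and -0.10. Epithelial lists were close to even: luminal miRNAs had 5 of 9 above 0 with a median of 0.028, and basal miRNAs 3 of 6 with a median of 0.062. miR-200b, which keeps cells epithelial by repressing Zeb1 and Zeb2, was the tested miRNA most often lower in flaxseed, with flaxseed higher in 5 of 36 pairs and a log2 fold change of -0.48 ± 0.31 (edgeR adjusted p = 0.877), which turned to 0.44 with housekeeping and 0.16 with positive control scaling. miR-203, which limits stemness of keratinocytes, differed by 0.70 ± 0.34, and by 0.19 without flaxseed 3.

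The other lists spanned medians from -0.12 to 0.21. Red cell miRNAs had 3 of 5 above 0 with a median of 0.21, adipocyte miRNAs 6 of 12 with 0.010, smooth muscle and stroma 5 of 9 with 0.032, the miR-23/27/24 clusters 4 of 5 with 0.18, miR-29 members 2 of 3 with 0.11, miR-30 members 3 of 5 with 0.026, and miR-34 members 1 of 2 with -0.12. Without flaxseed 3 the medians were 0.096 for adipocyte, 0.20 for smooth muscle and stroma, -0.092 for miR-29, -0.057 for miR-30 and 0.015 for miR-34, and without flaxseed 6 the red cell median was -0.073. The endothelial and lipid medians were 0.085 and -0.0045 without SDG 1. The miR-34 values leave out the tested probe miR-34c.124, since lists matched exact probe names and its name carries a suffix. It differed by -0.23, and by -0.033 without flaxseed 3. No member of any list passed the adjusted threshold.

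**Figure D5:**
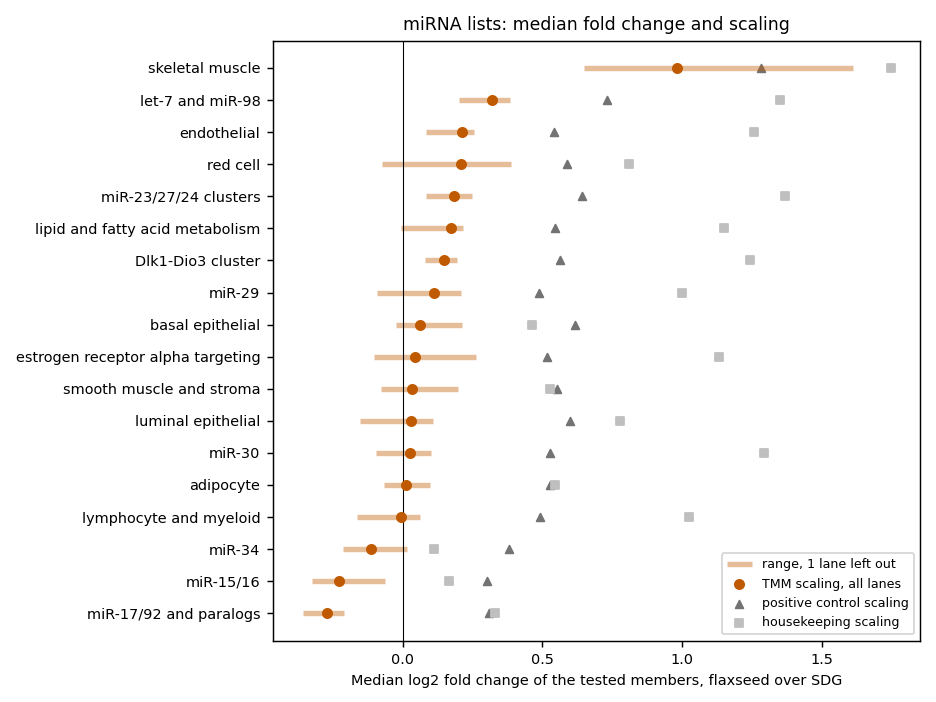
Median log2 fold change of flaxseed over SDG (horizontal) of the tested members of 18 miRNA lists (vertical), with all lanes and TMM scaling (circles), the range when 1 lane is left out (bars), and scaling by positive controls (triangles) or housekeeping mRNAs (squares). The skeletal muscle median is 0.98 and lies above 0 throughout, and both other scalings shift every list to higher values.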

How the data were processed

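Total RNA was extracted with the mirVana kit and counted on a NanoString nCounter mouse miRNA panel, per the labels. The deposited lane files give raw counts per probe, and the deposited table gives normalized log2 values, whose scaling rule is not given in the sources used here. Of that table's 238 probes, 237 matched the lane files by name; 16 of its 22 columns followed the lane of their own label most closely, and the 6 SDG columns followed another SDG lane, so the lane files were used for all results and the table only as an alternative. The labels name no batch, and 2 further lanes (1 basal, 1 oil) were excluded by the authors.

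Mouse probe counts were scaled by TMM and fitted with edgeR 4.0.16 (R 4.3.3) by its quasi-likelihood test over all 22 lanes without covariates, with Benjamini-Hochberg adjustment over 253 probes and a threshold of 0.05. The SE of a log2 fold change is its size over the square root of F. Lane measures were compared by exact permutation tests. The 33 viral probes were left out, and 6 tested probes name more than 1 miRNA.

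Alternatives were DESeq2 1.42.0, limma-voom and limma 3.58.1, 6 other scalings, 2 other filters, subtraction of negative controls, other lane sets, the replicate number as a block, and each lane left out in turn. Named miRNAs were the 20 of smallest p, those whose diets did not overlap, the 2 of smallest p of each list, and all tested skeletal muscle, miR-23/27/24 and let-7 members. Any other is said to be picked after its values were seen, serves as a tissue marker, or was missed by a list through its suffixed name. The miRNAs and the 18 lists were chosen with earlier results of these data known. Counting intervals cover counting error only.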

Additional observations from a re-analysis of the deposited data

Results flagged for a closer look

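Of 114 groups of 6 lanes examined (named miRNAs and lane measures in each diet), 29 had a highest or lowest lane whose gap to the nearest other lane, over the group's whole range, exceeded the 95% critical value of Dixon's test for 6 samples. A rate of 1 group in 20 is no baseline here, since the groups share the same lanes and many miRNAs were named for a small p. The flaxseed 3 lane accounted for 22 of them, SDG 5 for 3 and other lanes for 4.

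Flaxseed 3 was the high lane of its diet, in log2 CPM, for miR-27b at 10.68, let-7b at 17.46, let-7g at 16.60, let-7i at 15.09, miR-1224 at 12.26, miR-210 at 10.35, miR-378 at 14.17 and miR-301b at 10.81. It was also the high lane for miR-30a at 14.76, miR-30e at 12.05, miR-29a at 15.16, miR-27a at 13.57, miR-127 at 11.09, miR-150 at 12.22 and miR-15b at 11.74. It was the low lane for miR-24 at 8.10, let-7f at 9.36, miR-342-3p at 7.82, miR-34a at 7.08, miR-204 at 6.65 and miR-214 at 4.97. Members of 1 seed family thus stood at both ends in the same lane. The share of miR-720 in that lane was 53.7%.

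The SDG 5 lane had the highest total of its diet, 685937 counts, the largest share of probes above background, 50.4%, and a miR-720 share of 47.4%. miR-122 stood at 4.76 log2 CPM in flaxseed 1, the low lane of its diet, and the mean of the spike-in probes was 3.33 counts in flaxseed 2. In SDG, miR-210 was high in SDG 1 at 9.37 and miR-499 low in SDG 6 at 4.64, which is 9 counts.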

How the results depend on the processing

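No miRNA passed the adjusted threshold in any of the 31 alternatives, and 30 of the 50 named miRNAs kept their direction in all of them. The smallest adjusted p over the alternatives was 0.0784, with scaling by housekeeping mRNAs, and DESeq2 gave no adjusted p for 7 miRNAs. In edgeR 13 of 253 had an unadjusted p under 0.05. Of the same 253, there were 5 with limma-voom, 8 with total count scaling, 7 with total count without miR-720, 72 with housekeeping and 26 with positive control scaling. There were 22 of 566 tested with no filter, and 8 of 253 in a fit of flaxseed and SDG lanes only. There were 25 of 241 when flaxseed 3, SDG 5 and basal 1 were dropped for their miR-720 share and the filter was recomputed. Of these 25, 6 were higher and 19 lower in flaxseed. Housekeeping scaling gave 72 miRNAs higher and 0 lower in flaxseed, positive control scaling 25 higher and 1 lower. Housekeeping scaling rests on a geometric mean of 135 counts in flaxseed 3, against 1070 to 4407 in the other lanes of the 2 diets. It therefore raised flaxseed 3 far more than the others, and how much of the 72 and of the shifts below came from that lane was not tested. Leaving out 1 lane at a time gave 6 to 19, with 6 without SDG 1 and 7 without flaxseed 3. Deviations of same-numbered mice correlated from -0.28 to 0.29 over the 6 pairs by the lane files' numbers. By the deposited table's SDG numbers they correlated at 0.14, 0.24, 0.23, -0.22, 0.40 and 0.30. The mice were not treated as paired, because by neither numbering were all pairs over 0.1. That rule is not a test of pairing. The replicate block gave 4.09 for miR-1 and 3.35 for miR-133a, with 7 miRNAs at an unadjusted p under 0.05, and 6 with the SDG numbers of the deposited table, an alternative chosen after seeing the data like those with viral probes included or miR-720 left out. 

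With DESeq2, the log2 fold change turned to -0.021 for miR-34b-5p. With limma-voom, the list median became -0.38 for lymphocyte and myeloid and 0.0093 for lipid and fatty acid metabolism. In that setting, the log2 fold change turned to -0.062 for miR-34b-5p. With DESeq2 size factors in edgeR, the log2 fold change turned to -0.024 for miR-34b-5p. Scaled by total count, the list median became 0.12 for let-7 and miR-98, -0.11 for miR-29 and -0.019 for lipid and fatty acid metabolism. There, the log2 fold change turned to -0.11 for miR-29a, -0.040 for miR-27a and -0.023 for let-7i. Scaled by the 100 most abundant probes, the log2 fold change turned to 0.0011 for let-7a. Scaled by housekeeping mRNAs, the list median became 1.26 for endothelial, 1.03 for lymphocyte and myeloid, 0.81 for red cell, 0.54 for adipocyte, 0.78 for luminal epithelial, 0.46 for basal epithelial, 1.37 for miR-23/27/24 clusters, 1.35 for let-7 and miR-98, 0.33 for miR-17/92 and paralogs, 1.0002 for miR-29, 1.30 for miR-30, 1.24 for Dlk1-Dio3 cluster, 1.13 for estrogen receptor alpha targeting and 1.15 for lipid and fatty acid metabolism. In that setting, the log2 fold change turned to 0.44 for miR-200b, 0.074 for miR-19b, 0.86 for miR-15b, 0.72 for miR-15a, 0.66 for miR-29b, 0.16 for miR-34a, 0.90 for let-7a and 1.26 for miR-142-3p. Scaled by positive controls, the list median became 0.54 for endothelial, 0.49 for lymphocyte and myeloid, 0.53 for adipocyte, 0.62 for basal epithelial, 0.64 for miR-23/27/24 clusters, 0.73 for let-7 and miR-98, 0.31 for miR-17/92 and paralogs, 0.49 for miR-29, 0.53 for miR-30, 0.56 for Dlk1-Dio3 cluster, 0.52 for estrogen receptor alpha targeting and 0.54 for lipid and fatty acid metabolism. There, the log2 fold change turned to 0.16 for miR-200b, 0.17 for miR-19b, 0.28 for miR-15a, 0.34 for miR-29b, 0.28 for miR-34a, 0.41 for miR-24, 0.46 for let-7a and 0.48 for let-7f. Scaled by total count without miR-720, the list median became 0.10 for let-7 and miR-98 and -0.0072 for lipid and fatty acid metabolism. With that scaling, the log2 fold change turned to -0.0072 for miR-29a, -0.058 for miR-34b-5p and -0.020 for miR-23b. With no filter on low counts, the log2 fold change turned to -0.0041 for miR-34b-5p. After subtraction of the negative controls, the log2 fold change turned to -0.059 for miR-34b-5p. In limma on the deposited log2 table, the list median became 2.44 for skeletal muscle, -0.27 for lymphocyte and myeloid, 0.28 for miR-29 and 0.29 for miR-30. In that table, the log2 fold change turned to -0.078 for miR-214, -0.29 for miR-34b-5p and 0.14 for let-7a. Without flaxseed 3, SDG 5 and basal 1, filter recomputed, the list median became -0.33 for lymphocyte and myeloid and -0.23 for miR-29. Under the same choice, the log2 fold change turned to -0.46 for miR-1224, -0.57 for miR-2141, -0.019 for miR-30a, -0.23 for miR-29a, -0.33 for miR-30e, -0.087 for miR-27a, 0.056 for let-7f and -0.16 for let-7i. Without these lanes but with unchanged probes, the list median became -0.30 for lymphocyte and myeloid and -0.20 for miR-29. Under the same choice, the log2 fold change turned to -0.43 for miR-1224, -0.54 for miR-2141, -0.20 for miR-29a, -0.30 for miR-30e, -0.059 for miR-27a, 0.0088 for let-7a, 0.082 for let-7f and -0.13 for let-7i. With miR-720 left out of the fit, the log2 fold change turned to -0.049 for miR-34b-5p. Without 1 lane at a time, the list median ran over -0.092 to 0.21 for miR-29 and -0.0045 to 0.21 for lipid and fatty acid metabolism, and the log2 fold change over -0.15 to 0.18 for miR-34b-5p, -0.16 to 0.10 for let-7a, -0.30 to 1.75 for miR-1224, -0.39 to 2.49 for miR-2141, -0.11 to 0.27 for miR-29a, -0.24 to 0.89 for miR-30e, -0.25 to 0.039 for miR-24, -0.36 to 0.046 for let-7f, -0.10 to 0.41 for let-7i and -0.0063 to 0.24 for miR-23b. Leaving out flaxseed 3, SDG 2 or SDG 5 moved the values of the named miRNAs as given above, and the cause of these changes was not tested. A block for scan or cartridge was not run, since the headers give none, and mouse probes only was already the setting reported. Named miRNAs with fewer lanes above background have no value under the stricter filter or in the deposited table. miR-92a was above background in 1 flaxseed and 4 SDG lanes, and miR-133b and miR-499 each in 2 and 1; what depth added to their error was not tested.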
